A study of Mus musculus with 7 samples.

Results

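Ccl3, Ccl4, Ccl5, Ccl6 and Ccl9 are 5 of the 53379 genes counted in tumour-associated macrophages. The tumours were grown from MC38, a colon carcinoma line of the mouse. The 5 are the CC chemokine genes of the MIP type, named after macrophage inflammatory protein, that lie side by side on mouse chromosome 11. The set was drawn up with results of these data known, and Ccl3 and Ccl4 were chosen by their KO to WT differences, which were among the largest. The difference of the 5 genes between the groups is therefore given as a description, and where calls among them are counted nothing is read from the count. All 5 were found by symbol and identifier, and all 5 passed the filter on low counts.

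The tested mice were 3 Gpr65-knockout animals (KO 1 to KO 3), and the controls were 4 Gpr65-wild-type animals (WT 1 to WT 4). Gpr65 encodes a receptor that senses extracellular protons. All 7 C57BL/6J mice were fed a high-fat diet and carried an MC38 tumour for 21 days before cells positive for CD45, CD11b and F4/80 were sorted. How the knockout was made, whether it is confined to 1 cell type, and the age and sex of the mice are not given in the sources used here.

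Libraries held 22449772 to 30483733 counts. Gpr65 measured 0.920 ± 0.215 CPM (counts scaled to a common library size) in KO mice and 90.8 ± 19.4 CPM in WT mice (SD, n = 3 and 4), so the genotype labels hold in each library. The 7 macrophage markers were detected in every library, with a summed level of 4777 to 7692 CPM in KO and 4358 to 6422 CPM in WT mice. KO 1 stood apart on the first principal component of the most variable genes, at -68.5, where the others lay between -2.30 and 28.0. In KO 1, 940 of the 16234 genes that entered the test had no read, while the remaining libraries lacked 51 to 281. The cells were sequenced in bulk, so fewer cells of a type and less RNA per cell cannot be told apart.

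Chemokines are small secreted proteins that bind G-protein-coupled receptors on leukocytes and direct their movement. Ccl3 and Ccl4, the alpha and beta forms of the first macrophage inflammatory protein, are made by macrophages soon after activation, and also by T, NK and other myeloid cells. Ccr1 is among the receptors of Ccl3. Ccl5, also called RANTES, binds Ccr1 and Ccr3 among others and is a characteristic product of activated T and NK cells as well as of macrophages. Ccl6 and Ccl9 are rodent chemokines that act through Ccr1 and are made by macrophages and other myeloid cells.

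In genome order (GRCm38, chromosome 11, GENCODE M21) the genes are Ccl5 (83525778 to 83530518), Ccl9 (83572919 to 83578636), Ccl6 (83587882 to 83593087), Ccl3 (83647844 to 83649355) and Ccl4 (83662584 to 83664683). The whole span is 139 kb. Ccl4 is on the plus strand and the other 4 are on the minus strand. Ccl9 and Ccl6 are 9.24 kb apart and Ccl3 and Ccl4 13.2 kb apart, while 54.8 kb separate Ccl6 from Ccl3. The coding transcripts of Ccl6 and Ccl9 have 4 exons, and those of Ccl3, Ccl4 and Ccl5 have 3. A noncoding gene on the other strand, E230016K23Rik, overlaps Ccl6, but it had at most 21 counts in any library. Of the 50-base words in the transcripts, 0% of those of Ccl3, Ccl4, Ccl5 and Ccl6 occur in transcripts of any other gene on either strand. For Ccl9 the share was 1.97%.

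RefSeq promoter sequences (GRCm38.p6, 250 bases before to 50 after the start) matched 3 of the 5 members, Ccl3, Ccl6 and Ccl9. They are shown because Ccl6 and Ccl9 varied together between mice and apart from Ccl3, as described further on. Whether the sequences bear on those levels was not tested. In the first pair of sequences, capitals mark the ungapped stretch in which Ccl6 and Ccl9 are most alike. All are written 5′ to 3′ on the minus strand.
Ccl6, chr11:83593038-83593337: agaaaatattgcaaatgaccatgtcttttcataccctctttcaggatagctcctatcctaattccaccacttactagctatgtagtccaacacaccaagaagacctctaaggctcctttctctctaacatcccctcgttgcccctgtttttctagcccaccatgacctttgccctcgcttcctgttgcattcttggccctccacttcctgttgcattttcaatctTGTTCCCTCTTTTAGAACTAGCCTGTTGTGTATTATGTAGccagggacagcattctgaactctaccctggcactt
Ccl9, chr11:83578587-83578886: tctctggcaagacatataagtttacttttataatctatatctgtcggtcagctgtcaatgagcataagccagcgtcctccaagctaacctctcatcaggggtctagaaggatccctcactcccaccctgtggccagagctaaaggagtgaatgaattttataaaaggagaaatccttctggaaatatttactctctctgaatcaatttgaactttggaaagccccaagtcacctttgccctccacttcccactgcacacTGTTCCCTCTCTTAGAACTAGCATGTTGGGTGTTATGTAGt
In the Ccl3 sequence, capitals mark the single match to the PU.1-type letters described in the next paragraph.
Ccl3, chr11:83649329-83649628: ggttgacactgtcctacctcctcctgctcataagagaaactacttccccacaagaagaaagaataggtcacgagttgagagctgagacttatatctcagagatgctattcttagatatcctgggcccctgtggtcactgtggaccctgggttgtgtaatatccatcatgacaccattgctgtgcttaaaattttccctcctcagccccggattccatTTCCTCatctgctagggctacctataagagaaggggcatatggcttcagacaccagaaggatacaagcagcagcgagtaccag

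The stretch shared by Ccl6 and Ccl9 is 40 bases long, of which 36 are identical (90%). It lies across the annotated start of Ccl6 and just inside that of Ccl9. The best stretch of Ccl3 with Ccl6 was 12 bases and with Ccl9 8 bases long. Each promoter was searched on either strand for letters of 6 motifs. The PU.1-type letters GAGGAA, for a factor that directs myeloid genes, were found once in Ccl3, 33 bases before the start, and in 28.3% of the 32851 promoters of the same length. The AP-1 letters TGANTCA were found once in Ccl9 and in 7.81% of all promoters. A kappaB-type motif was found once in Ccl9 and in 50.8% of all promoters. TATAAA was found at 3 places in Ccl9, a pair of them overlapping, and in 13.6% of all promoters. The interferon response (ISRE) motif (3.44% of all promoters) and the cAMP response half-site TGACGT (7.51%) are not in these 3 windows, which says nothing of the factors that bind them.

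Ccl3 measured 213, 219 and 150 CPM in KO 1 to KO 3, and 83.7, 58.1, 77.8 and 51.6 CPM in WT 1 to WT 4. Each KO mouse lay above each WT mouse, and the lowest KO value was 1.79 times the highest WT value. The fitted log2 fold change, KO minus WT, was 1.52 (SE 0.22), or 2.86-fold. Ccl4 measured 440, 604 and 369 CPM in KO 1 to KO 3, and 148, 97.6, 150 and 76.3 CPM in WT 1 to WT 4. The groups were again apart, the lowest KO value being 2.45 times the highest WT value. The log2 fold change was 2.00 (SE 0.28), or 3.99-fold.

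**Figure D1:**
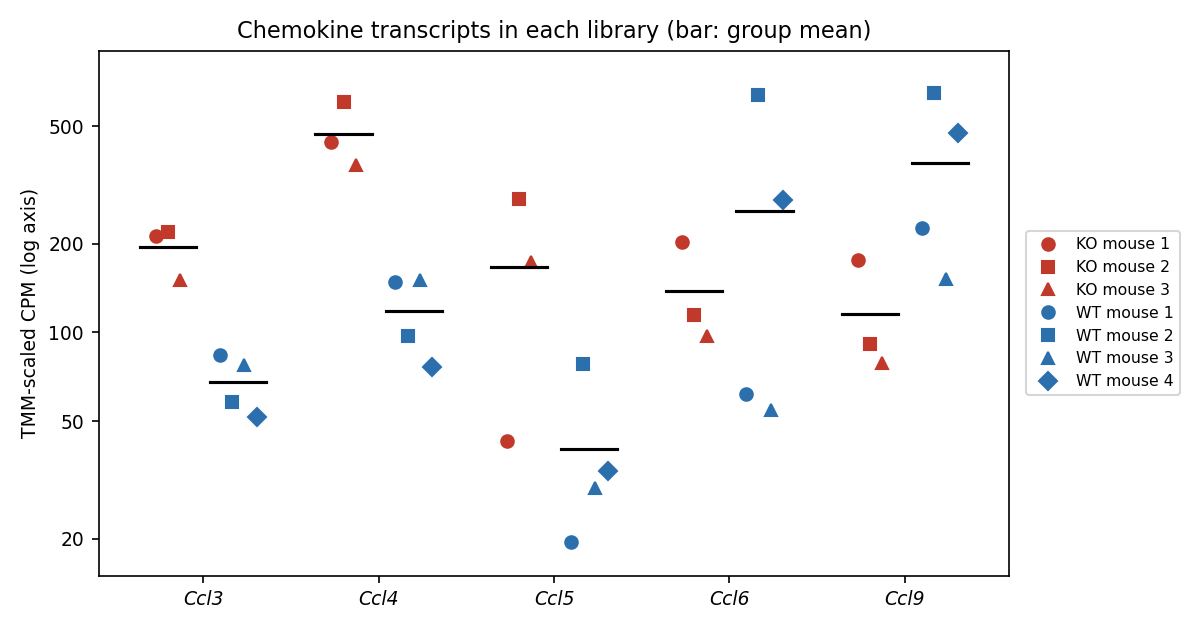
Expression of the 5 chemokine genes in each library, as TMM-scaled CPM on a log axis, with KO mice left of WT mice for each gene, a symbol per mouse and a bar at each group mean. The KO and WT symbols are apart for Ccl3 and Ccl4 and interleave for Ccl5, Ccl6 and Ccl9.

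Ccl5 measured 42.8, 283 and 173 CPM in KO 1 to KO 3, and 19.5, 78.3, 29.7 and 34.0 CPM in WT 1 to WT 4. KO 2 and KO 3 lay above all WT mice, whereas KO 1 lay below WT 2. The log2 fold change of 2.04 was about as large as that of Ccl4, but its SE was 0.62. Within the KO group the highest library was 6.60 times the lowest, against 1.46 times for Ccl3 and 1.64 times for Ccl4.

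Ccl6 measured 202, 115 and 97.1 CPM in KO 1 to KO 3, and 62.1, 637, 54.5 and 280 CPM in WT 1 to WT 4. The KO mice lay inside the WT range, with WT 2 and WT 4 above them and WT 1 and WT 3 below. The log2 fold change of -0.91 (SE 0.79) depended on WT 2, without which it was 0.06 (SE 0.62). Ccl9 measured 176, 91.4 and 78.5 CPM in KO 1 to KO 3, and 226, 648, 152 and 472 CPM in WT 1 to WT 4. Only KO 1 reached into the WT range, above WT 3, and KO 2 and KO 3 were the lowest of the 7 libraries. The log2 fold change was -1.70 (SE 0.52).

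Of the 5 members, 3 thus had a positive and 2 a negative fold change. In edgeR's quasi-likelihood test over all 16234 tested genes, 0 of the 5 passed an adjusted p of 0.05, where 0.0370% of all genes passed. At an unadjusted p under 0.05 it had 4 of the 5, Ccl6 being the exception, beside 5.37% of all genes. DESeq2 called the same 4, beside 0.607% of the genes it tested. Groups that did not overlap were seen for 2 members, Ccl3 and Ccl4, and for 6.12% of all genes. Because this contrast helped choose the members, nothing is read from these counts.

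Ccl3 and Ccl4 followed each other from mouse to mouse. The 3 KO mice came in the same order for each gene, KO 2 above KO 1 above KO 3. WT 4 was the lowest and WT 2 the next lowest for each. Pearson's r of their log2 CPM over the 7 libraries was 0.99, a description in which the group difference is included. The ratio of Ccl4 to Ccl3 counts within a library was 2.06, 2.76 and 2.46 in KO 1 to KO 3, and 1.77, 1.68, 1.94 and 1.48 in WT 1 to WT 4. These ratios did not overlap between the groups, the lowest KO value being 2.06 and the highest WT value 1.94. Because Ccl3 and Ccl4 were chosen by this contrast, nothing is read from that gap. The means were 2.43 ± 0.349 in KO and 1.71 ± 0.190 in WT mice (SD, n = 3 and 4).

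Ccl6 and Ccl9 formed another pair. WT 2 was the highest and WT 4 the next highest library for each gene, and r over the 7 libraries was 0.72. The ratio of Ccl9 to Ccl6 counts was 0.875, 0.794 and 0.809 in KO 1 to KO 3. It was 3.64, 1.02, 2.79 and 1.68 in WT 1 to WT 4, so each WT mouse had more Ccl9 than Ccl6 counts and each KO mouse fewer. The spread of this ratio was small among KO mice, at 0.826 ± 0.0431 (SD, n = 3), and wide among WT mice, at 2.28 ± 1.16 (SD, n = 4). Counts are not scaled for length, and Ccl9 has 3045 bases of merged exons against 1795 for Ccl6. Per kilobase of merged exons, Ccl6 was above Ccl9 in WT 2 (355 against 213) and WT 4 (156 against 155). It was below Ccl9 in WT 1 (34.6 against 74.3) and WT 3 (30.4 against 49.9). Between the pairs, r was -0.79 for Ccl3 with Ccl9 and -0.30 for Ccl3 with Ccl6.

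**Figure D2:**
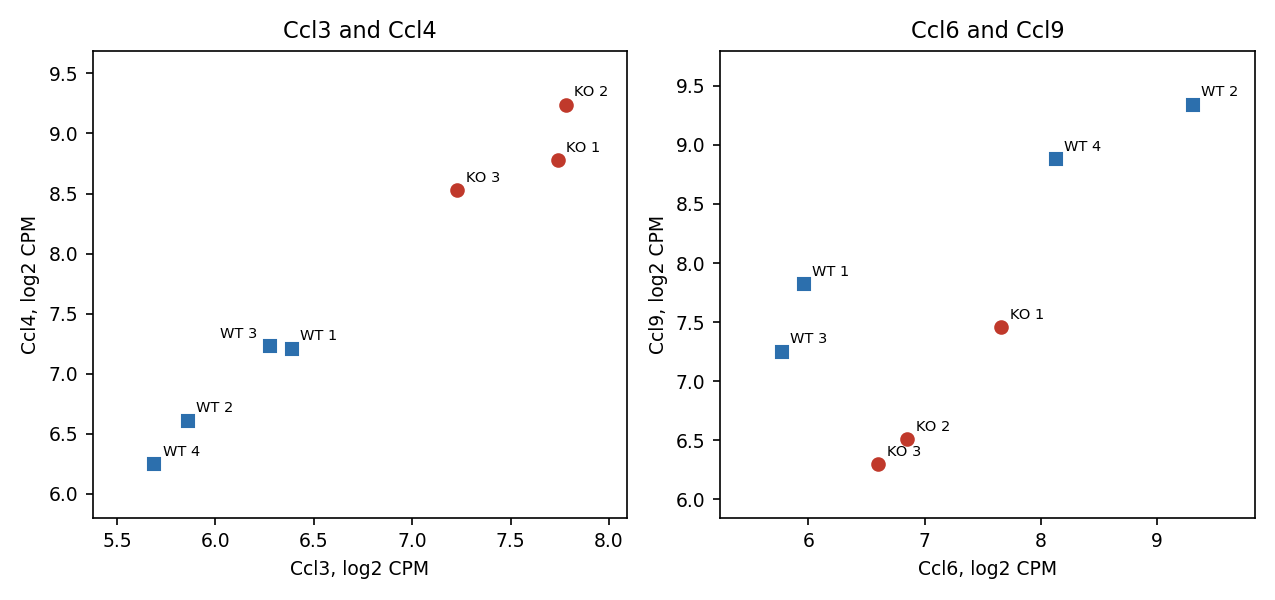
Log2 CPM of Ccl4 against Ccl3 (left) and of Ccl9 against Ccl6 (right), with 1 point per library, KO as circles and WT as squares. The Ccl3 and Ccl4 points fall along 1 line with KO at the upper end, while WT 2 and WT 4 are at the upper end for Ccl6 and Ccl9 and the ratio of Ccl9 to Ccl6 counts is 0.794 to 0.875 in KO and 1.02 to 3.64 in WT mice.

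The WT mice themselves differed far more in Ccl6 and Ccl9 than in Ccl3 and Ccl4. The highest WT value was 11.7 times the lowest for Ccl6, 4.27 times for Ccl9 and 4.02 times for Ccl5. It was 1.62 times for Ccl3 and 1.97 times for Ccl4. Total CPM of the 5 genes was 1085 ± 222 in KO and 859 ± 482 in WT mice (SD, n = 3 and 4), and the highest value of all, 1519, was that of WT 2. So the summed level overlapped between the groups. Its make-up per length, given below, overlapped for the share of Ccl3 plus Ccl4 and not for that of Ccl9. The Ccl9 share is taken over a sum that holds Ccl3 and Ccl4, which were chosen by this contrast. Nothing is therefore read from that gap.

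Levels of different genes are compared per length, as CPM per kilobase of merged exons. On this scale Ccl4 was the highest in KO mice with a mean of 714 (559 to 915, n = 3), followed by Ccl3 at 254 (196 to 286), Ccl5 at 173 (44.6 to 294), Ccl6 at 76.9 (54.1 to 112) and Ccl9 at 37.9 (25.8 to 57.9). Ccl4 exceeded Ccl3 without overlap, whereas the ranges of each of the other neighbours in this order overlapped. In WT mice the order was Ccl4 at 179 (116 to 228, n = 4), Ccl6 at 144 (30.4 to 355), Ccl9 at 123 (49.9 to 213), Ccl3 at 88.5 (67.3 to 109) and Ccl5 at 42.1 (20.3 to 81.6). There the ranges of all neighbours in the order overlapped. With the longest transcript as the length, Ccl6 came ahead of Ccl4 in WT mice, and the order in KO mice was the same.

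As a share of the summed CPM per kilobase of the 5, Ccl3 and Ccl4 together made up 81.5%, 75.6% and 74.4% in KO 1 to KO 3. In WT 1 to WT 4 they made up 72.1%, 25.6%, 74.8% and 34.5%. WT 1 and WT 3 were thus close to the KO mice, whereas Ccl6 and Ccl9 together held 65.0% in WT 2 and 58.8% in WT 4. Ccl9 alone held at most 5% in KO mice, below the 16.1%, 24.4%, 11.3% and 29.3% in WT 1 to WT 4. The CPM of Ccl9 did overlap, with KO 1 at 176 and WT 3 at 152. Nothing is read from the gap in share, because the chosen Ccl3 and Ccl4 are part of the sum. Among 16216 tested genes with a length, Ccl4 ranked 65th in KO and 363rd in WT mice by mean CPM per kilobase. Ccl9 ranked 1681st in KO and 561st in WT mice.

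**Figure D3:**
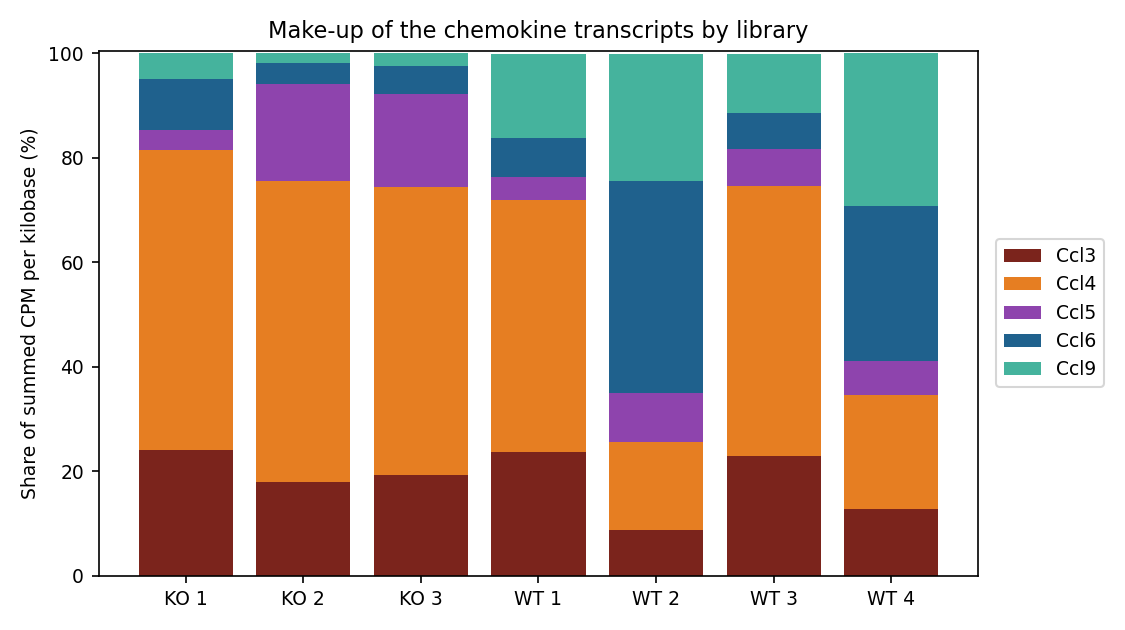
Share of each gene in the summed CPM per kilobase of the 5 chemokine genes, 1 bar per library, KO mice left of WT mice. Ccl3 and Ccl4 fill 74.4% or more of the bar in each KO mouse and in WT 3, and 25.6% and 34.5% in WT 2 and WT 4.

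T and NK cells are sources of Ccl5, Ccl3 and Ccl4, and their markers were present in these sorts. All 10 T cell markers were tested and all 10 had a positive fold change, none past the threshold. Their summed level was 27.0, 76.1 and 542 CPM in KO 1 to KO 3, and 36.9 to 123 CPM in WT mice. Of the 9 NK cell markers 8 were positive, with a sum of 52.3, 158 and 732 CPM in KO 1 to KO 3 and 52.2 to 235 CPM in WT mice. The markers Cd3d, Cd8a, Klrb1c and Eomes were at 0 in KO 1. Either sum was highest in KO 3, and Ccl3, Ccl4 and Ccl5 were each highest in KO 2. Klrk1 of the NK cell list was also highest in KO 2, at 102 CPM against 89.8 CPM in KO 3. Every other NK cell marker was highest in KO 3. KO 1 had the lowest T cell sum of all libraries, beside 213 CPM of Ccl3 and 440 CPM of Ccl4. The part of lymphocytes in Ccl3, Ccl4 and Ccl5 was not tested.

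**Figure D4:**
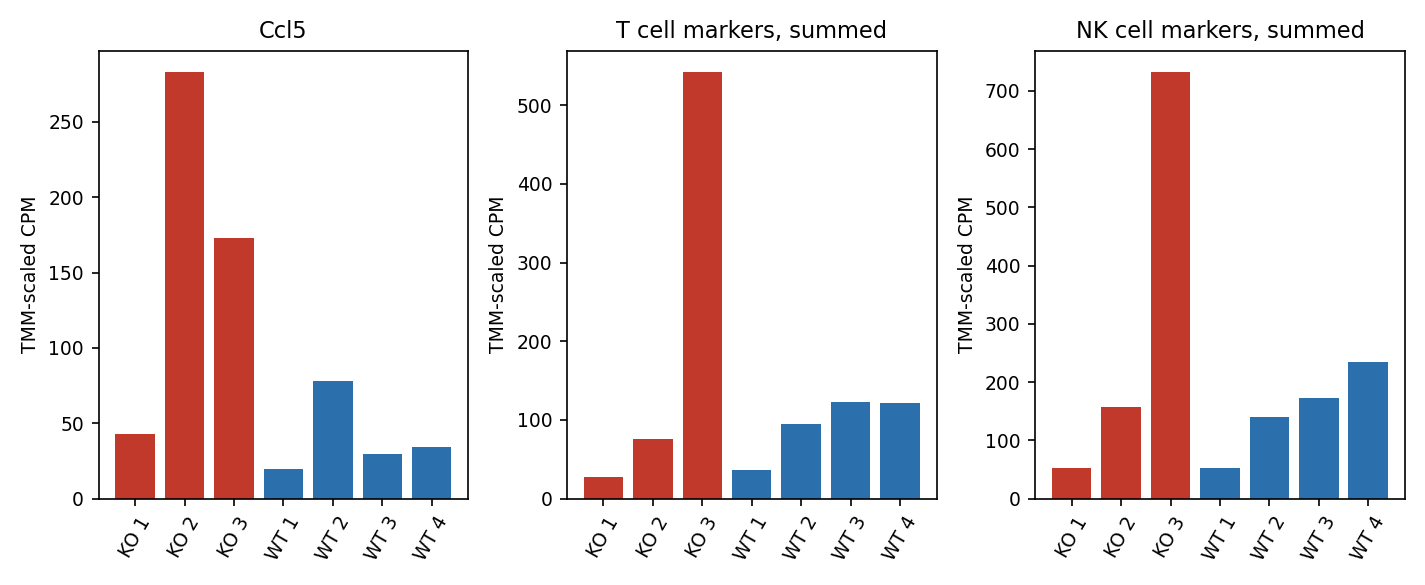
TMM-scaled CPM of Ccl5 (left), of the 10 T cell markers summed (middle) and of the 9 NK cell markers summed (right), with 1 bar per library, KO in red left of WT in blue. Ccl5 is highest in KO 2 at 283 CPM, while either marker sum is highest in KO 3, at 542 and 732 CPM.

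Neutrophils and eosinophils can also make Ccl6. Of 7 tested neutrophil markers 6 were negative, and the sum of the list was 87.9 to 184 CPM in KO and 83.5 to 215 CPM in WT mice. The receptor gene Csf3r was the highest of the list in each library. It measured 65.6, 181 and 133 CPM in KO 1 to KO 3, and 53.2 to 100 CPM in WT mice, highest there in WT 2. Ly6g, the defining marker, was at 0 in all libraries. WT 2, the library with the most Ccl6 and Ccl9, had the highest sum, with the granule-type gene Retnlg at 48.5 CPM against 0 to 0.551 CPM in KO mice and 0.873 to 10.6 CPM in the other WT mice. The 9 mast cell, basophil and eosinophil markers summed to 5.02 to 10.5 CPM in KO and 5.90 to 34.5 CPM in WT mice, again highest in WT 2, with Ms4a2 at 0 in all libraries. All 3 tested markers of that list were negative.

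Dendritic cell markers, of which 5 of 8 were negative, summed to 60.2 to 110 CPM in KO and 50.5 to 264 CPM in WT mice, with the top value in WT 2. The MC38 and epithelial list summed to 42.1 to 168 CPM in KO and 126 to 450 CPM in WT mice. It was highest in WT 4 and WT 2, the mice with most Ccl6 and Ccl9, and all 3 tested markers were negative. Most of this sum was Cdh1, at 437 CPM in WT 4 and 375 CPM in WT 2, while Krt8 was at 0 in all libraries but KO 2 and WT 4, and Krt19 in all but WT 4. B cell markers summed to 9.62 to 41.5 CPM in KO and 8.43 to 20.7 CPM in WT mice, and between 1 and 4 of the 5 markers were at 0 in each library. The part of these cell types in the chemokine values was not tested.

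The receptors did not move in 1 direction. Of 7 listed receptor genes 4 were tested, 2 with a positive and 2 with a negative fold change, a median of -0.11 beside 0.00 over all tested genes, and 0 past the threshold. At an unadjusted p under 0.05 there were also 0, but 3 without KO 1, where 9.80% of all genes had such a p. Ccrl2 encodes a chemokine receptor-like protein that does not couple to G proteins. It averaged 583 ± 235 CPM in KO and 355 ± 99.5 CPM in WT mice (SD, n = 3 and 4), a log2 fold change of 0.71 (SE 0.32, edgeR adjusted p = 0.93). Ccr1, a receptor of Ccl3, Ccl5, Ccl6 and Ccl9, was named after its values were seen and averaged 366 ± 153 CPM in KO and 515 ± 126 CPM in WT mice (-0.49, SE 0.30, edgeR adjusted p = 1). Ccr3 was scarce, at 0.406 to 1.74 CPM in KO and 0.208 to 10.2 CPM in WT mice, with the highest level in WT 2.

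Of 14 other CC chemokine genes 10 were tested, and 3 had a positive and 7 a negative fold change, with a median of -0.18. None passed edgeR's adjusted threshold, and 2 of the 10 had an unadjusted p under 0.05, beside 5.37% of all genes. Ccl12, a monocyte chemoattractant from another cluster of the same chromosome, averaged 568 ± 300 CPM in KO and 239 ± 45.1 CPM in WT mice (log2 fold change 1.25, SE 0.34, edgeR adjusted p = 0.73). It was the 1 of the 10 whose groups did not overlap, beside 6.12% of all genes. Ccl24, an eosinophil attractant of alternatively activated macrophages, averaged 133 ± 185 CPM in KO and 860 ± 1131 CPM in WT mice (-2.69, SE 1.82, edgeR adjusted p = 1).

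None of the genes listed as inducing or restraining chemokine expression passed the threshold. Among 21 transcription factors of chemokine induction, all tested, 19 had a positive and 2 a negative fold change, with a median of 0.12, and 0 passed, also at an unadjusted p under 0.05. Over all tested genes 49.7% were positive. Fos averaged 5370 ± 945 CPM in KO and 4938 ± 180 CPM in WT mice (0.12, SE 0.20, edgeR adjusted p = 1), and Junb 3112 ± 835 CPM in KO and 2954 ± 826 CPM in WT mice (0.08, SE 0.29, edgeR adjusted p = 1), each a subunit of AP-1. Of 16 inhibitors and mRNA decay factors 12 were positive and 4 negative, with a median of 0.24, 0 past the threshold and 2 at an unadjusted p under 0.05, beside 5.37% of all genes. Zfp36, which binds and destabilises mRNAs of inflammatory genes, averaged 2207 ± 180 CPM in KO and 1877 ± 103 CPM in WT mice (0.23, SE 0.17, edgeR adjusted p = 1). Dusp1, a phosphatase of MAP kinases, averaged 3236 ± 1267 CPM in KO and 2237 ± 296 CPM in WT mice (0.53, SE 0.27, edgeR adjusted p = 0.98). Without KO 1 these lists had 18 of 21 and 13 of 16 members positive, and 5 and 7 at an unadjusted p under 0.05. In that fit 7936 of 16967 genes were positive, and 9.80% had such a p.

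Genes for storage, binding and trimming of chemokines had 4 positive and 9 negative members of 13, a median of -0.28, 0 past the threshold and 3 at an unadjusted p under 0.05, beside 5.37% of all genes. Srgn, the granule proteoglycan that holds chemokines, averaged 990 ± 89.9 CPM in KO and 1108 ± 385 CPM in WT mice (-0.16, SE 0.27, edgeR adjusted p = 1). Ctsb, a lysosomal protease, averaged 4470 ± 1547 CPM in KO and 3643 ± 532 CPM in WT mice (0.30, SE 0.26, edgeR adjusted p = 1). Groups that did not overlap were seen for 1 of the 13, beside 6.12% of all genes. It was Sdc1, a cell-surface proteoglycan named after its values were seen, at 5.39 ± 3.54 CPM in KO and 24.9 ± 12.3 CPM in WT mice (-2.20, SE 0.53, edgeR adjusted p = 0.66).

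For each member the 3 genes with the most similar pattern were taken from 10408 genes by Pearson's r of log2 CPM over the 7 libraries, which share the group difference and the scaling. For Ccl3 they were Cd2ap (0.990), Sh3bp5l (0.988) and Dhx40 (0.986). For Ccl4 they were Slfn5 (0.991), Dhx40 (0.988) and Sh3bp5l (0.987). Slfn5, a member of the schlafen family, measured 52.7, 86.1 and 57.7 CPM in KO 1 to KO 3, and 12.6, 9.60, 13.2 and 7.01 CPM in WT 1 to WT 4. Like Ccl4 it was highest in KO 2 and lowest in WT 4, and it passed the threshold (2.63, SE 0.27, edgeR adjusted p = 0.016). Ccl5 was most like Lmo4 (0.996), Il27 (0.992) and B2m (0.985), the light chain of MHC class I. B2m measured 3803, 7441 and 5692 CPM in KO 1 to KO 3, and 2879, 5066, 3663 and 3755 CPM in WT 1 to WT 4, with the top library the same as for Ccl5.

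Ccl6 was most like Cox5a (0.990), Ube2j2 (0.988) and Rps20 (0.984), each with a far narrower range. Ccl9 was most like Mmp12 (0.993), the macrophage elastase, Fbxl2 (0.987) and Tnfrsf26 (0.980). Mmp12 measured 155, 47.5 and 60.7 CPM in KO 1 to KO 3, and 231, 1465, 125 and 814 CPM in WT 1 to WT 4. Its 2 highest libraries were WT 2 and WT 4, as for Ccl9, with a KO minus WT log2 value of -2.91 (SE 0.86, edgeR adjusted p = 0.76).

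Between the members and up to 100 kb to either side, 3 other genes were tested, each with a positive fold change and none past the threshold. Wfdc17, a small secreted protein of the WAP type whose gene begins 54.6 kb from the Ccl3 start, measured 114, 132 and 126 CPM in KO 1 to KO 3, and 21.8, 82.9, 11.7 and 35.2 CPM in WT 1 to WT 4. Its groups did not overlap, and the KO mice were alike while the WT mice were not (1.71, SE 0.54, edgeR adjusted p = 0.78). Taf15, an RNA-binding protein of the FET family, had 0.35 (SE 0.40, edgeR adjusted p = 1) and Heatr6 0.20 (SE 0.18, edgeR adjusted p = 1). Between Ccl5 and Ccl3, both with a positive value, lay Ccl9 with a negative value and Ccl6 without a settled sign. The value of Ccl6 was -0.91 (SE 0.79), and 0.06 without WT 2.

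**Figure D5:**
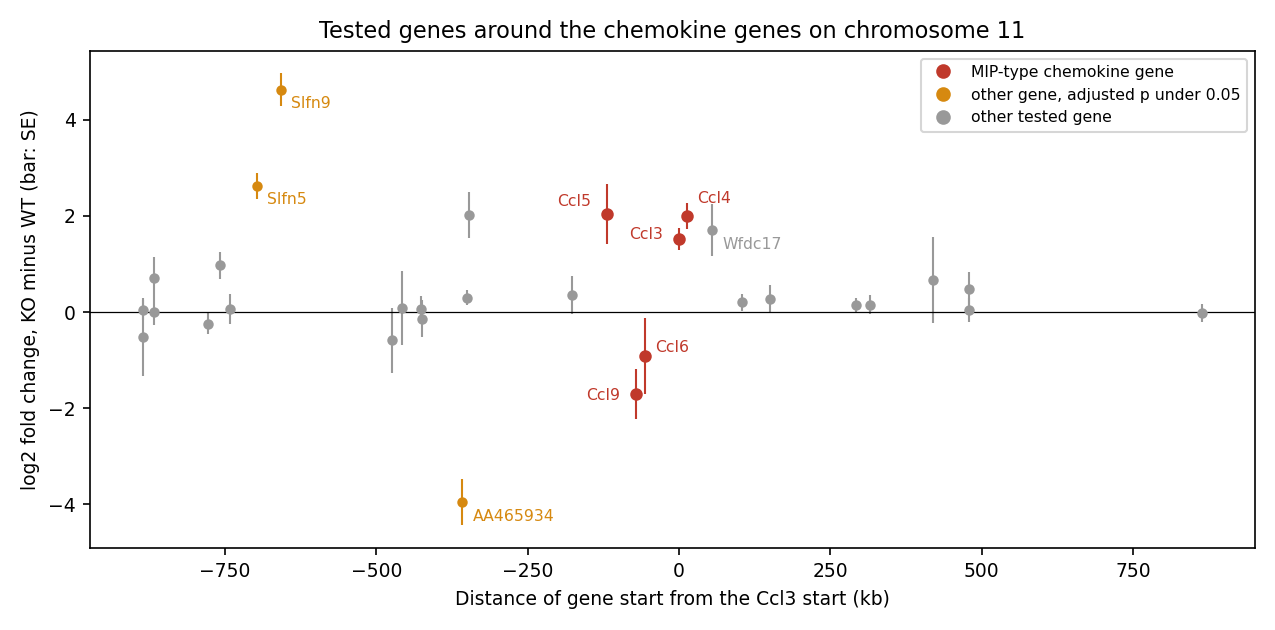
Log2 fold change, KO minus WT, with its SE as a bar, of tested genes around the chemokine genes against the distance of their start from the Ccl3 start in kb. Ccl9 and Ccl6 lie below 0 between Ccl5 and Ccl3 above 0, and Slfn2 is left out because its WT libraries had 0 counts.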

How the data were processed

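The authors deposited 1 table of raw read counts per gene without normalization, from polyA RNA libraries made with a SMART-seq kit, per the labels' protocols. Per the submitters' processing notes, the programs were DESeq2 1.24.0, BWA 0.7.12, FastQC 0.11.5 and cutadapt 1.15. Gene positions are those of GENCODE M21 on GRCm38. The read counter and its use of strand are not given in the sources used here. Of 53379 identifiers, 53274 matched GENCODE M21, and rows without a symbol held 0.000338% of counts.

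The fit used edgeR 4.0.16 (R 4.3.3) with TMM scaling, the default filter by group, the robust quasi-likelihood F test on genotype and Benjamini-Hochberg adjustment over 16234 genes. CPM are TMM-scaled, and log2 CPM has a prior count of 2. The SE is the log2 fold change over the root of F. DESeq2 1.42.0 and limma 3.58.1 gave alternatives. P-values measure the spread between mice. No batch is labelled. The mouse numbers were taken to name separate mice and were not used as pairs in the main fit.

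Members and lists were chosen with earlier results of these data known. Named genes are Gpr65, the members, called members of each list or else its 2 highest by average log2 CPM, the 3 genes most like each member, and tested neighbours within 100 kb. Some genes that this rule or the lists hold are not reported here by name.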

Additional observations from a re-analysis of the deposited data

How the results depend on the processing

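Of 16 alternatives to the 6 genes called over the whole table, 11 gave between 4 and 9 genes. The count was 11 without a filter on low counts, 120 by DESeq2 and 1 with the mouse number as a replicate block. It ranged from 3 to 14 over the fits without 1 library, at 3 without KO 2 and 14 without KO 1. Same-numbered mice had correlations of 0.0656, 0.0509 and 0.0882 of their deviations from the group means. Those of differently numbered mice lay between -0.194 and 0.095. With so few mice these values cannot show whether equal numbers share a batch. Under the block the log2 fold changes were 1.40 for Ccl3, 1.83 for Ccl4 and 0.15 for Ccl6. The threshold of an adjusted p of 0.05 was passed by Ccl3 without a low-count filter (log2 fold change 1.5) and by DESeq2 (1.52), by Ccl4 in the same fits (1.98 and 2.00), and by Ccl5 (2.04) and Ccl9 (-1.70) in DESeq2. The members were chosen partly on this contrast, so these calls support nothing. The sign of Ccl6 turned by limma voom with library weights (0.25), under the block (0.15) and without WT 2 (0.06), and the cause was not tested. Over the fits without 1 library its values lay between -1.32 and 0.06. With the longest transcript as the length, the mean share of Ccl4 in KO mice was 52.8% against 56.7%, and that of Ccl5 in WT mice 9.03% against 6.86%. Each member had at least 469 counts in each library. Whether the number of mice or the quality of single libraries limits the precision was not tested.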

Other observations

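The following genes were picked with their values in view. Within 1 Mb of either end of the chemokine genes 27 other genes were tested, of which 20 had a positive fold change, 4 passed edgeR's adjusted threshold and 7 had groups that did not overlap. Over all tested genes the shares were 49.7%, 0.0370% and 6.12%. All 4 called genes, Slfn5, Slfn9, Slfn2 and AA465934, were on the Ccl5 side, where 18 genes were tested, and 0 of the 9 on the Ccl4 side were called. The nearest of the 4, AA465934, ends 231 kb before Ccl5 and was lower in KO mice, at 0.362 ± 0.142 CPM against 5.72 ± 1.68 CPM in WT mice (SD, n = 3 and 4). On the Ccl5 side Rad51d, a DNA repair gene, also had groups that did not overlap and was higher in KO by 0.97 (SE 0.29) on the log2 scale, with edgeR adjusted p = 0.77. On the Ccl4 side Wfdc17 was the 1 gene of this kind.

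Among 39 sets of 4 WT values examined for a mouse far from the others, 0 qualified by the rule used. That does not mean that no WT mouse stood apart. For Ccl6, WT 2 measured 637 CPM, against 54.5 to 280 CPM in the other WT mice. The KO group, with 3 mice, was not examined.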
